A study of Mus musculus with 165 samples.

Results

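The RNA levels of 7 genes of the nuclear lamina and the inner nuclear membrane were followed in PUER cells during 168h of differentiation in GCSF or in IL3. The genes were picked by symbol from the 36255 genes of the table: the lamin genes Lmna, Lmnb1 and Lmnb2, the lamin B receptor gene Lbr, the SUN domain genes Sun1 and Sun2, and the emerin gene Emd. All 7 passed the filter on low values. PUER cells are a mouse myeloid progenitor line from PU.1-/- mice with a transgene for a fusion of PU.1 and the hormone-binding part of the estrogen receptor, which 4-hydroxy-tamoxifen (OHT) switches on. Every group therefore shares the PU.1-/- genotype and the fusion transgene, and all come from 1 line. Undifferentiated cells grew in IL3 without OHT (n = 3), and GCSF 0h cells had spent 48h in GCSF in place of IL3, still without OHT (n = 3). GCSF-OHT cells then received 100 nM OHT in GCSF (78 libraries), and IL3-OHT cells received 200 nM OHT in IL3 without a GCSF pre-treatment (81 libraries). Per the paper, cells of both courses were seeded in plates 48h before OHT, and the undifferentiated samples stand for the start of both. GCSF 0h against undifferentiated cells therefore also holds these 48h in plates, which cannot be told apart from GCSF. Every comparison of IL3-OHT or GCSF-OHT with undifferentiated cells holds the same 48h. In IL3 they cannot be told apart from OHT. Both courses were sampled at 27 time points from 1h to 168h, with 3 replicates each except GCSF-OHT 96h, 112h and 152h, which had 2. Medium with fresh OHT was given at 40h, 88h and 136h, and adherent cells were lifted with trypsin at time points after 24h. Cytokine, OHT dose and pre-treatment cannot be told apart, and each time point had its own plate, so that plate and time cannot be told apart either.

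The nuclear lamina is a meshwork of intermediate filaments that lines the inner nuclear membrane and gives the nucleus its stiffness. A-type lamins (lamin A and lamin C, both from Lmna) are splice products that vary with cell type and mechanical load, whereas the B-type lamins of Lmnb1 and Lmnb2 stay farnesylated and tied to the membrane. LBR, a membrane protein with a sterol reductase domain, and the A-type lamins are the main tethers that hold heterochromatin at the nuclear edge. SUN1 and SUN2 pair with nesprins across the envelope to link the lamina with the cytoskeleton, and emerin is a LEM domain protein that binds the lamina and chromatin. Neutrophils are known for lobulated nuclei with much LBR and little lamin A/C, and loss of LBR gives neutrophils with poorly lobed nuclei.

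The promoters of an A-type lamin gene, a B-type lamin gene and Sun2 are shown because their courses below differ. Each is the 250 bases before a RefSeq start (GRCm38.p6, minus strand, printed 5′ to 3′). Motifs were searched on both strands, and capitals mark the matches. The Sp1 type motif was spelled GGGCGG. The CCAAT box was spelled as in its name. The PU.1 type motif was spelled GAGGAAG. For the AP-1 type the letters were TGANTCA. The TATA motif was spelled TATAAA. Adjacent capitals in Sun2 are neighbouring or overlapping matches.
Lmna, chr3:88503353-88503602: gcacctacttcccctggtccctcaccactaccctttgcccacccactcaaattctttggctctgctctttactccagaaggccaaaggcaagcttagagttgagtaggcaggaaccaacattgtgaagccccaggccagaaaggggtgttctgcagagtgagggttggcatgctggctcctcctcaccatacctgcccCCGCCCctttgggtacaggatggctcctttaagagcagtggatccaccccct
Lmnb2, chr10:80918246-80918495: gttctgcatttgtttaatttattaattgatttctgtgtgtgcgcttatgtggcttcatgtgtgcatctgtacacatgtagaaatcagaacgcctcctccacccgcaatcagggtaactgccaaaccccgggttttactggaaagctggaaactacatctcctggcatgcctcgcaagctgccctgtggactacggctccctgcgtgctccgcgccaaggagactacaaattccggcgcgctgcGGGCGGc
Sun2, chr15:79742537-79742786: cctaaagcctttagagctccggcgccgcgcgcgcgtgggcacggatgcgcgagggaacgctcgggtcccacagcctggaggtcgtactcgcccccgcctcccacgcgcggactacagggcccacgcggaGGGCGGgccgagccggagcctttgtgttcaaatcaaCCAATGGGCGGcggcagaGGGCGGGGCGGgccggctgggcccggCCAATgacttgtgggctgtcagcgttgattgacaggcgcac
Lmna and Lmnb2 each held 1 Sp1 type motif and no CCAAT box in this window, and Sun2 held 4 Sp1 type motifs and 2 CCAAT boxes. None of the 3 printed windows held the PU.1 type, AP-1 type or TATA motif as spelled here. Among 32851 promoter windows of the same length, 32.7% held the Sp1 type motif, 33.8% the CCAAT box, 10.6% the PU.1 type, 6.75% the AP-1 type and 12.4% the TATA motif. G and C made up 56.4% of the Lmna window, 52.8% of the Lmnb2 window and 70.8% of the Sun2 window, against a median of 52.4% over all windows. The Lmna window lies inside the annotated gene, which has a more distal start in GENCODE. Motif content also depends on the start chosen. The window before another RefSeq start of Lmna (chr3:88493313-88493562) held a CCAAT box and no Sp1 type motif. That of Lmnb2 (chr10:80906413-80906662) held none of these motifs.

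Values are normalized counts, that is, read counts per gene divided by a scaling factor for each library. The libraries held 14600246 to 33147945 reads on genes (median 21960878). A change was called when limma on log2(normalized count + 1) gave a p under 0.05 after Benjamini-Hochberg adjustment and the log2 fold change was beyond 0.58 in size. The neutrophil markers Elane and S100a8 were high in undifferentiated cells, in GCSF 0h and in both 168h groups. The summed level of 9 neutrophil markers ranged from 158777 to 858122 over all libraries. Ltf, also among these 9, was far lower, with a highest library value of 266.3. Its mean was 8.07 in undifferentiated cells, 4.24 in GCSF 0h and 56.5 in GCSF-OHT 168h. The 7 macrophage markers summed to 1607 to 28308, but Csf1r, which is 1 of them, never exceeded 56.3. Of the progenitor markers, Kit (4053 in undifferentiated cells and 1314 in IL3-OHT 168h), Sox4 (7767 and 1587) and Myb (1626 and 2518) were well expressed. Flt3 never exceeded 55.2, and Cd34 had at most 6 reads in a library. Markers of other cells were low: fibroblast markers summed to at most 88.6, erythroid markers to 132, lymphoid markers to 284, mast cell and basophil markers to 326 and megakaryocyte markers to 406. The basophil gene Prss34 was at 0 in every library, and the T cell gene Cd3e and the globin gene Hba-a1 had at most 3 and 4 reads. In bulk RNA, fewer cells of a type and less RNA per cell cannot be told apart. All 3 libraries of IL3-OHT 96h and all 3 of IL3-OHT 144h stood apart from their neighbours and were left out of the main fit. They are described separately.

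Before OHT was added, cells moved from IL3 to GCSF had far less A-type and more B-type lamin RNA than undifferentiated cells. Lmna had 16341, 15472 and 16400 normalized counts in the undifferentiated libraries and 608, 543 and 477 in GCSF 0h. The groups were far apart, with means of 16071 ± 519 and 543 ± 65.5 (SD, n = 3 each), a 29.6-fold lower level after GCSF (log2 fold change −4.89 ± 0.073 SE, limma adjusted p = 5.24e-89). Lmnb1 had 953, 939 and 1025 in undifferentiated cells and 2930, 2896 and 3164 in GCSF 0h. Every GCSF 0h library lay above every undifferentiated one, and the mean was 3.08-fold higher (log2 fold change 1.62 ± 0.072 SE). Lmnb2 rose 2.48-fold, from 797, 724 and 729 to 1853, 1806 and 1914 (log2 fold change 1.31 ± 0.068 SE). Cell type markers moved in the same step, where 33.7% of all tested genes were called, and their part in the lamin levels was not tested. Of 7 macrophage markers, 6 fell and 1 rose (median log2 fold change −1.72, summed level 10733 to 1759). Cd14 alone went from 7861 to 770, while Adgre1 (8.65 to 5.18), Csf1r (8.63 to 1.84) and Mrc1 (3.71 to 0.914) were near the floor of 3 reads. Of 5 progenitor markers, 3 fell and 1 rose, with Cd34 (2.74 to 0) near that floor. Of 9 neutrophil markers, 5 rose and 1 fell.

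The membrane partners moved less in the same step. Sun1 fell from 1931, 2023 and 1886 to 1045, 1068 and 1030, a 1.86-fold lower mean (log2 fold change −0.89 ± 0.063 SE). Sun2 rose from 9758, 9315 and 9170 to 14857, 14549 and 15104, a 1.58-fold higher mean (log2 fold change 0.66 ± 0.051 SE). Sun1 and Sun2 thus went opposite ways. Lbr had 3367, 3221 and 3525 in undifferentiated cells and 4879, 5071 and 5153 in GCSF 0h, and its log2 fold change of 0.579 lay just under the fold threshold (limma adjusted p = 1.58e-28), which it passed in edgeR (0.62) and DESeq2 (0.61). Emd overlapped between the groups, at 970, 935 and 823 against 831, 813 and 831, with a 95% interval of the log2 fold change from −0.29 to 0.020. In all, 5 of the 7 genes were called (3 up, 2 down), where 33.7% of the 17414 tested genes were called.

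With OHT in GCSF, 1 of the 7 genes was called at 168h, and 6 had an adjusted p under 0.05. Lmna stayed low, at 627, 561 and 601 in GCSF-OHT 168h, within reach of the 3 GCSF 0h libraries (log2 fold change 0.14, 95% interval −0.0038 to 0.29). Lmnb1 was the called gene, at 1986, 2065 and 1893, all below the GCSF 0h libraries (log2 fold change −0.60 ± 0.072 SE, limma adjusted p = 2.41e-12). In this comparison 24.8% of tested genes were called. Leaving out replicate 3 took Lmnb1 under the fold threshold (log2 fold change −0.52) and Lbr over it (0.60). Lbr (log2 fold change 0.56), Sun1 (0.54) and Sun2 (−0.56) had adjusted p-values of at most 3.95e-13 with changes just short of the fold threshold. Lmnb2, at 1510, 1477 and 1547, was also below all GCSF 0h libraries (log2 fold change −0.30, limma adjusted p = 9.35e-05), as was Emd, at 678, 687 and 750 (−0.23, limma adjusted p = 0.0107).

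At 168h of OHT in IL3, both Lmna and Lmnb1 were lower and Lbr was higher than in undifferentiated cells. Lmna had 2331, 2161 and 2276 normalized counts in IL3-OHT 168h, 7.12-fold below undifferentiated cells (log2 fold change −2.83 ± 0.073 SE, limma adjusted p = 2.61e-64). Lmnb1 had 518, 570 and 567, 1.76-fold below (log2 fold change −0.82 ± 0.072 SE). Lbr had 5240, 5653 and 5496, 1.62-fold above (log2 fold change 0.70 ± 0.037 SE). Lmnb2 overlapped, at 751, 796 and 709, with a 95% interval of the log2 fold change from −0.13 to 0.14. Sun1 (log2 fold change 0.23), Sun2 (0.12) and Emd (−0.33) had limma adjusted p-values of at most 0.045 but fell short of the fold threshold. The 3 calls of 7 compare with 25.4% of all tested genes.

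From undifferentiated cells to the end of the GCSF course, 4 of the 7 genes were called, against 39.1% of tested genes. Lmna ended 26.96-fold lower (log2 fold change −4.75 ± 0.073 SE). Lbr ended 2.21-fold higher, at 7406, 7726 and 7190 in GCSF-OHT 168h (log2 fold change 1.14 ± 0.037 SE), Lmnb1 2.04-fold higher and Lmnb2 2.02-fold higher. These GCSF comparisons share the GCSF 0h or undifferentiated libraries, and over all genes the median log2 fold change at the GCSF endpoint was −0.115. Sun1 (log2 fold change −0.35), Sun2 (0.099) and Emd (−0.36) were not called.

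**Figure D1:**
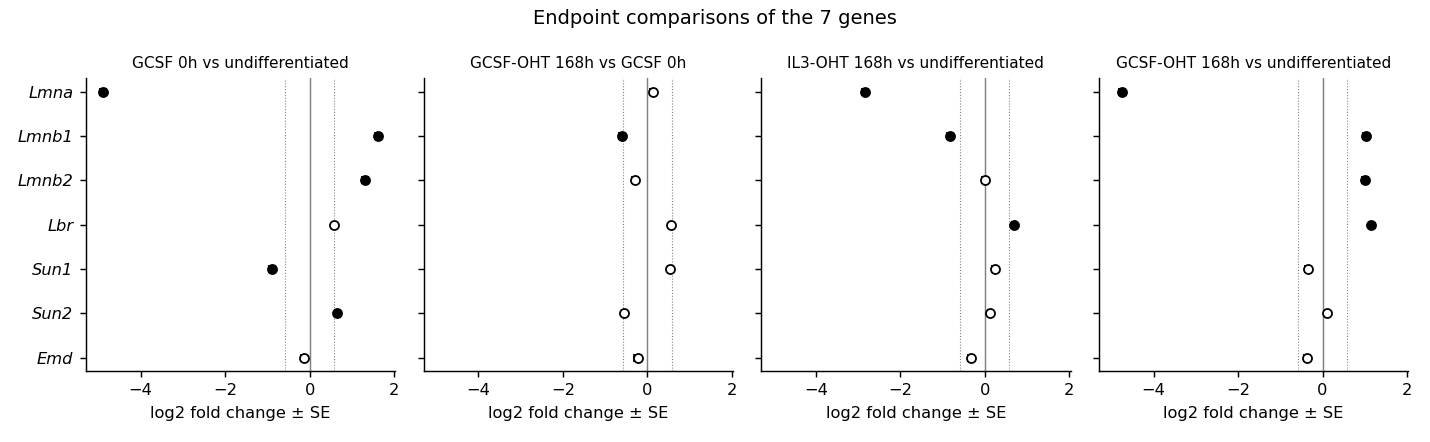
Log2 fold change ± SE (horizontal axis) of the 7 genes in the 4 endpoint comparisons, 3 libraries a group. Filled symbols were called, open symbols were not, dotted lines stand at ± 0.58, and SE bars are mostly shorter than the symbols. Lmna lies at −4.89 after GCSF alone and near 0 for OHT in GCSF.

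Levels were divided by the length of the principal transcript (GENCODE, 1595 bases for Emd to 4134 for Sun1) for a comparison between genes. The comparison is approximate, since each row counts all transcripts of its gene. Per kilobase, Lmna was the first of the 7 in undifferentiated cells, at 5092 ± 164.6 normalized counts per kb. It was the last in GCSF 0h (171.9 ± 20.7) and GCSF-OHT 168h (188.9 ± 10.5). Sun2 held the first place in the other 3 groups, at 4000 ± 75.0 per kb in GCSF 0h, 2717 ± 46.1 in GCSF-OHT 168h and 2756 ± 73.8 in IL3-OHT 168h. Lbr was second in those 3 groups, at 1434 ± 40.1, 2120 ± 76.9 and 1556 ± 59.5 per kb. Lmna came next after Sun2 and Lbr in IL3-OHT 168h (715 ± 27.5), where Lmnb1 was last (194 ± 10.3) (SD, n = 3 each).

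Ordered by level over these 4 groups, Lbr ran from GCSF-OHT 168h down through IL3-OHT 168h and GCSF 0h to undifferentiated cells with no overlap of libraries between neighbours. Lmna ran from undifferentiated cells through IL3-OHT 168h to GCSF-OHT 168h and GCSF 0h, of which the last pair overlapped. Lmnb1 ran from GCSF 0h through GCSF-OHT 168h and undifferentiated cells to IL3-OHT 168h with no overlap, and in Lmnb2 the last pair changed places and overlapped. Sun1 was highest in IL3-OHT 168h and lowest in GCSF 0h with no overlap in between. For Sun2 both 168h groups overlapped, below GCSF 0h and above undifferentiated cells. For Emd, undifferentiated cells and GCSF 0h overlapped, as did both 168h groups.

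The ratio of Lmna to the sum of Lmnb1 and Lmnb2, on the log2 scale, put both cytokines on separate tracks. It was 3.22, 3.22 and 3.23 in the undifferentiated libraries and −2.98, −3.12 and −3.41 in GCSF 0h, a difference of −6.39. In GCSF-OHT 168h it was −2.48, −2.66 and −2.52, and in IL3-OHT 168h 0.88, 0.66 and 0.84. The groups did not overlap in any of the 4 endpoint comparisons, and each gave p = 0.1 in a two-sided exact permutation test, the smallest value that 3 libraries against 3 allow. In IL3 the ratio fell to −0.63 ± 0.028 at 40h and came back to 1.35 ± 0.081 at 136h (SD, n = 3 each).

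**Figure D2:**
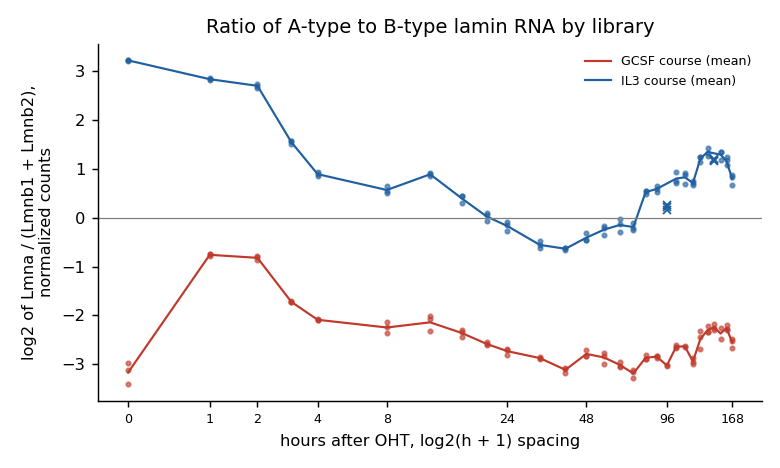
Log2 ratio of Lmna to Lmnb1 plus Lmnb2 (vertical axis) against hours after OHT on a log2(h + 1) spacing, with points for libraries, lines for means and crosses for IL3-OHT 96h and 144h. At 0h the IL3 course starts from undifferentiated cells (3.22) and the GCSF course from GCSF 0h (−3.17), and the courses stay apart throughout.

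Over the courses, Lmna in GCSF gave a short pulse. It rose from 543 at 0h to 2451, 2385 and 2399 in the libraries of 1h, a 4.44-fold higher mean (log2 fold change 2.16 ± 0.073 SE, limma adjusted p = 9.98e-52), was 2370 at 2h, 1384 at 3h and 1092 at 4h, and was 720 ± 50.0 at 8h. The comparison at 1h was chosen after the values had been seen. It was the 1 call among the 7 genes at 1h in GCSF, where 6.05% of tested genes were called. The summed macrophage markers went from 1759 to 7041 over the same hour, and their part in the pulse was not tested. At GCSF 0h this sum was mostly Cd14 (770) and Cd68 (682), and the sum at 1h is not broken down by gene here. At 8h no gene of the 7 was called in GCSF by limma, although Lmnb1 (log2 fold change −0.56), Lmnb2 (−0.43), Lmna (0.41), Sun1 (0.49) and Lbr (0.27) had adjusted p-values of at most 1.18e-06, and 9.40% of tested genes were called. Sun2 (−0.11) and Emd (−0.041) had adjusted p-values of 0.0815 and 0.771. Without replicate 2, Lmnb1 was called at 8h (log2 fold change −0.61).

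In IL3, Lmna stayed below its starting level after OHT. It was 11265 at 1h, 10467 at 2h, 5776 at 3h, 4397 at 4h and 3740, 4229 and 3836 in the libraries of 8h, a 4.08-fold lower mean (log2 fold change −2.03 ± 0.073 SE, limma adjusted p = 3.45e-50). At all 25 IL3-OHT time points in the main fit, every Lmna library lay below every undifferentiated one, with the lowest mean, 2195 ± 3.55, at 40h. At 1h in IL3 none of the 7 genes was called by limma, against 4.42% of tested genes, though Lmna (log2 fold change −0.51), Lmnb2 (−0.38) and Lbr (0.36) had adjusted p-values of at most 4.09e-06. At 8h, Lmna, Lmnb2 and Sun2 were called in IL3, where 29.7% of tested genes were.

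The B-type lamins rose and then fell in IL3. Lmnb1 climbed from 972 to 2407, 1995 and 2289 in the libraries of 48h and fell to 269, 305 and 308 at 136h, so that its highest and lowest means, 2230 ± 211.8 and 294 ± 21.5, were 7.58-fold apart. Medium with fresh OHT was given at 40h, shortly before this peak, and at 136h, the time of the lowest mean. The lowest Lmna mean (40h) and the highest Lbr mean (88h) in IL3 also fell at times of fresh OHT. The part of these renewals in the levels was not tested. Lmnb2 dipped to 575 ± 32.4 at 1h, stood at 1265, 1278 and 1284 at 8h (log2 fold change 0.77 ± 0.068 SE against undifferentiated cells), peaked at 1336 ± 46.6 at 56h and was 617 ± 31.7 at 136h. In GCSF both moved within a narrower span: Lmnb1 between 3530 ± 78.04 at 72h and 1801 ± 55.01 at 136h, and Lmnb2 between 2220 ± 84.7 at 80h and 1382 ± 36.4 at 8h (SD, n = 3 each).

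**Figure D3:**
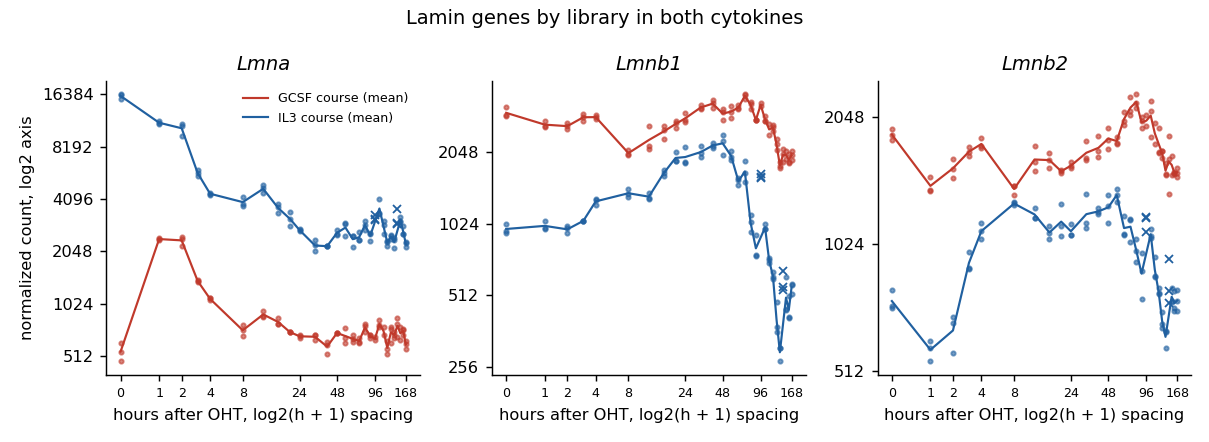
Normalized counts of Lmna, Lmnb1 and Lmnb2 (log2 vertical axes) against hours after OHT on a log2(h + 1) spacing, with points for libraries, lines for means and crosses for IL3-OHT 96h and 144h. The GCSF course starts from GCSF 0h and the IL3 course from undifferentiated cells. Lmna pulses to 2412 at 1h in GCSF, and Lmnb1 in IL3 falls from 2230 at 48h to 294 at 136h.

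The B-type lamin levels are given beside those of proliferation genes. Of 16 such genes (Mki67, Top2a, cyclins, MCM helicase subunits and others), 15 were called up and none down after GCSF pre-treatment, against 33.7% of tested genes called in either direction (2261 up and 3600 down), with a median log2 fold change of 1.53 beside −0.0918 over all genes. Their summed level was 24737 ± 554 in undifferentiated cells, 65213 ± 3715 in GCSF 0h, 43341 ± 1492 in GCSF-OHT 168h, 40860 ± 1598 in IL3-OHT 48h and 12463 ± 609 in IL3-OHT 136h (SD, n = 3 each). Across 54 group means of log2 values, the median Pearson r with these genes was 0.93 for Lmnb1 and 0.88 for Lmnb2, beside 0.011 and 0.016 for all genes with a mean of at least 100. The groups share time courses and starting cells, so these r are descriptions, and the part of cell division in the lamin levels was not tested.

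**Figure D4:**
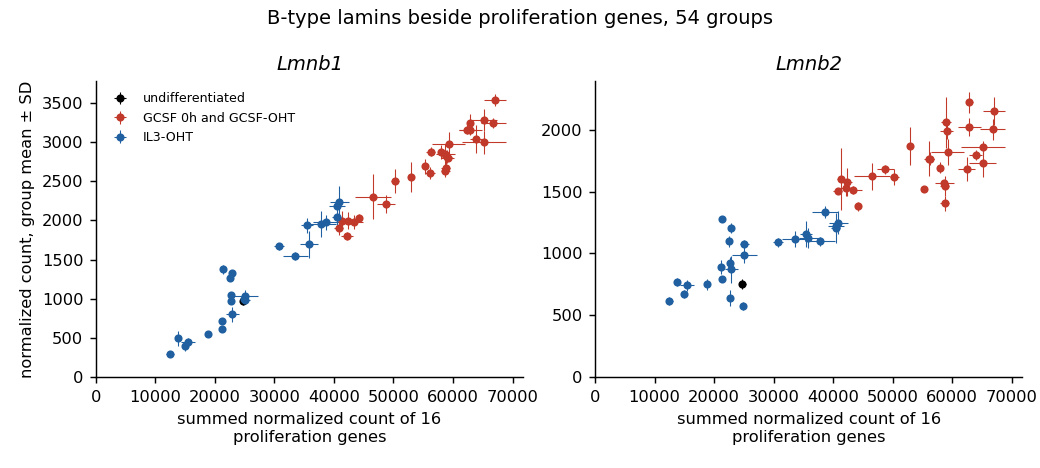
Group means ± SD of Lmnb1 and Lmnb2 (vertical axes, normalized counts) against the summed normalized count of 16 proliferation genes (horizontal axes), for 54 groups of 2 or 3 libraries, without IL3-OHT 96h and 144h. Lmnb1 runs from 294 where the sum is lowest, at IL3-OHT 136h, to 3530 at GCSF-OHT 72h.

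Lbr rose in both cytokines by different routes. In GCSF all libraries of all 27 time points lay above those of GCSF 0h, with the highest mean at 96h (7892 ± 227, SD, n = 2). In IL3 it first went from 3371 to 4328 at 1h, back to 2862 ± 31.4 at 3h, and then up to 7029 ± 71.2 at 88h before it settled at 5463 ± 208.8 at 168h. At 80h Lbr was called in both, at 6745, 6856 and 6770 in IL3 (log2 fold change 1.01 ± 0.037 SE against undifferentiated cells) and at a mean of 7677 in GCSF (log2 fold change 0.61 ± 0.037 SE against GCSF 0h). The GCSF call at 80h was lost with upper-quartile scaling (0.57) and without replicate 1 (0.5797). Sun1 was the other gene called at 80h in GCSF (log2 fold change 0.80 ± 0.063 SE) and Lmna the other in IL3 (−2.47 ± 0.073 SE), against 16.4% and 29.4% of tested genes.

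Sun2 fell early in IL3 and later moved to both sides of its starting level. Its libraries went from 9170 to 9758 in undifferentiated cells to 4081, 4321 and 4261 at 8h, a 2.23-fold lower mean (log2 fold change −1.16 ± 0.051 SE, limma adjusted p = 1.10e-41). The mean was above the start at 80h (11136) and highest at 128h (11260 ± 1201). All Sun2 libraries lay above the undifferentiated ones at 7 of the 25 IL3-OHT time points in the main fit and below them at 13. In GCSF its mean was 15444 ± 369 at 1h and 10078 ± 171.1 at 168h, and all libraries of 24 of the 27 time points lay below GCSF 0h. Sun1 went from 1947 in undifferentiated cells to 2589 at 2h, 1516 ± 51.6 at 8h and 3064 ± 79.1 at 160h in IL3. In GCSF it rose from 1027 ± 6.68 at 1h to 2015 ± 96.7 at 128h, with all libraries above GCSF 0h at 26 of 27 time points (SD, n = 3 each). Emd was the steadiest of the 7 in range of means, between 705 and 977 in GCSF (1.39-fold) and between 631 and 970 in IL3 (1.54-fold).

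**Figure D5:**
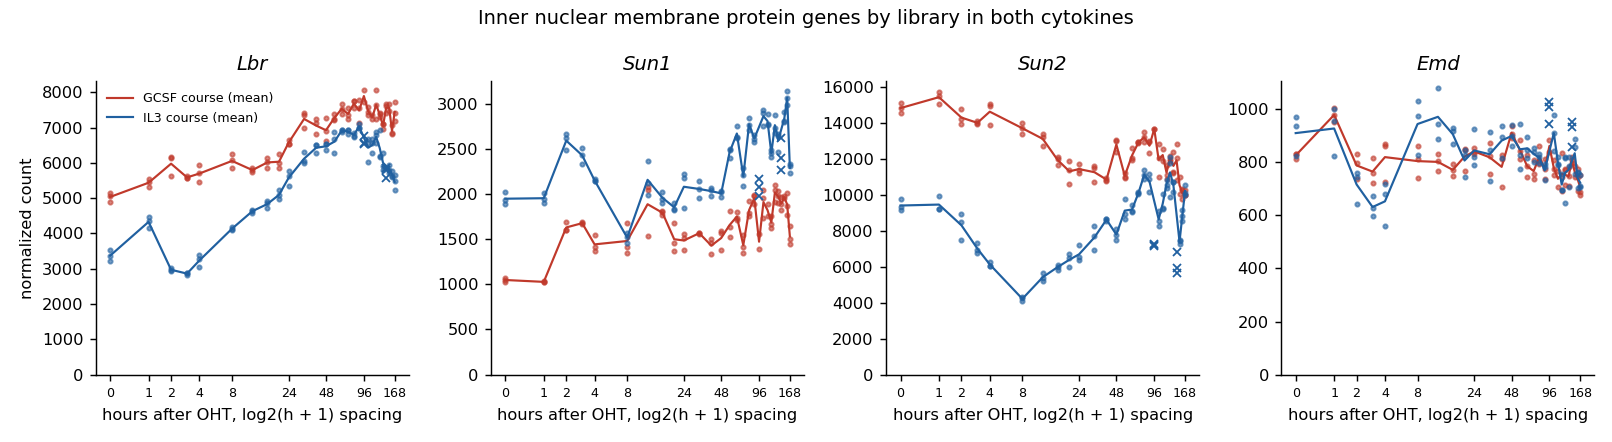
Normalized counts of Lbr, Sun1, Sun2 and Emd (vertical axes from 0) against hours after OHT on a log2(h + 1) spacing, with points for libraries, lines for means and crosses for IL3-OHT 96h and 144h. Sun2 in IL3 dips to 4221 at 8h, and the GCSF and IL3 courses of Emd overlap at most time points.

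Tested over a whole course with the limma F test, all 7 genes had an adjusted p of at most 6.29e-05 in both cytokines. With the further demand of a log2 fold change beyond 0.58 at 1 time point or more, 4 of the 7 were called in GCSF (Lbr, Lmna, Lmnb1 and Sun1), where 47.7% of tested genes were, and 6 in IL3 (all but Emd, which reached −0.52), where 69.7% were. In GCSF, Sun2 reached −0.56, Lmnb2 −0.43 and Emd 0.24. The changes farthest from the start were 2.16 for Lmna at 1h in GCSF and −2.87 for Lmna in IL3, on the log2 scale. Between 24h and 32h, the step at which trypsin came in, none of the 7 was called by limma in either cytokine, against 0.172% of tested genes in GCSF and 0.356% in IL3. An adjusted p under 0.05 without the fold threshold was reached by Lbr in both (log2 fold change 0.14 in GCSF and 0.13 in IL3) and by Lmna (−0.30) and Sun2 (0.19) in IL3.

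Averaged over the 25 shared time points, GCSF-OHT cells had less Lmna and more of both B-type lamins than IL3-OHT cells. The log2 difference was −2.03 ± 0.015 for Lmna, 1.31 ± 0.015 for Lmnb1 and 0.84 ± 0.014 for Lmnb2 (SE, limma), and these 3 of 7 were called, against 24.5% of tested genes. At each of the 25 time points all Lmna libraries of GCSF-OHT lay below those of IL3-OHT, and all Lmnb1, Lmnb2 and Lbr libraries lay above. Lbr nonetheless differed by only 0.32 on the log2 scale, under the fold threshold. Sun2 was higher in GCSF-OHT (0.57, libraries apart at 23 time points) and Sun1 lower (−0.50, apart at 23 time points), both also under it. For Emd the 95% interval of the difference ran from −0.062 to 0.0016.

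The difference between cytokines in the effect of OHT at 168h was called for 2 of the 7 genes, against 25.7% of tested genes. For Lmna, the OHT effect was 0.14 in GCSF and −2.83 in IL3, a difference of 2.97 ± 0.10 SE (limma adjusted p = 6.12e-51). For Sun2 it was −0.56 in GCSF and 0.12 in IL3, a difference of −0.68 ± 0.073 SE (adjusted p = 2.05e-14). The starting levels of Lmna were unequal, 543 in GCSF 0h and 16071 in undifferentiated cells. The starting cells also differed in culture: GCSF 0h cells had already been in plates, whereas undifferentiated cells stand for the time before seeding. For all 7 genes, the effect in IL3 therefore also holds the time in plates before OHT, and the effect in GCSF does not. In these differences that time cannot be told apart from OHT. For Lmnb1 the difference of 0.22 had a 95% interval from 0.018 to 0.42 and did not pass (adjusted p = 0.0706). Sun1 (0.31, limma adjusted p = 0.00237), Lmnb2 (−0.30, 0.00684) and Lbr (−0.13, 0.0309) had an adjusted p under 0.05 and missed the fold threshold only, and Emd was at 0.10 (0.503).

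At IL3-OHT 96h, 8h after fresh OHT, Lmnb1 had 1595, 1657 and 1607 normalized counts, above its neighbours at 88h (mean 806) and 104h (986). The log2 difference from the mean of these neighbours was 0.86 ± 0.063 SE, the 1 call of 7, against 17.5% of tested genes. At IL3-OHT 144h, again 8h after fresh OHT, Lmnb1 had 538, 553 and 646, above the means of 294 at 136h and 499 at 152h, and was again the 1 called gene (log2 difference 0.60 ± 0.063 SE), against 15.4%. Leaving out replicate 3 took it to 0.50, under the threshold. Sun2 went the other way both times. It had 7186, 7271 and 7227 at 96h, below the neighbours' means of 10749 and 8644 (log2 difference −0.41 ± 0.046 SE), and 5673, 5952 and 6810 at 144h, below 10543 and 7399 (−0.53 ± 0.046 SE). Of the proliferation genes, 5 were called up at 96h and 3 up and 1 down at 144h.

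Other genes of the envelope were described from lists, to be read against the 33.7% of all tested genes called after GCSF pre-treatment, 24.8% for OHT in GCSF, 25.4% at the IL3 endpoint, 39.1% at the GCSF endpoint and 29.7% at 8h in IL3. None of the 4 nesprin genes, whose products bind SUN proteins, was called after GCSF pre-treatment, and Syne2 (log2 fold change 0.84 ± 0.10 SE) and Syne1 (0.77 ± 0.081 SE) were higher at the GCSF endpoint (median of the list 0.49, beside −0.115 over all genes). At 8h in IL3 both were called lower, Syne1 at −1.04 ± 0.081 SE and Syne2 at −0.68 ± 0.10 SE, and Syne3 and Syne4 were not called. Over the whole IL3 course, the log2 fold changes farthest from the start were 1.23 for Syne3 and −1.09 for Syne4. None of the 5 lamin processing enzyme genes, such as the protease gene Zmpste24, was called in any of the 4 endpoint comparisons, with list medians from −0.040 to 0.12. At 8h in IL3, 2 of the 5 were called up (list median 0.55), the farnesyltransferase subunit gene Fntb (0.72 ± 0.099 SE) and Zmpste24 (0.62 ± 0.067 SE). For Fntb the OHT effect at 168h was lower in GCSF than in IL3 (−0.79 ± 0.14 SE), where it also holds the time in plates before OHT. Of 13 other inner nuclear membrane and chromatin tether genes, 3 rose and 1 fell after GCSF pre-treatment, with Ankle1 (log2 fold change 2.21 ± 0.11 SE), a LEM domain nuclease, Tmpo (1.21 ± 0.042 SE), which encodes the LAP2 proteins, and Nrm (0.99 ± 0.069 SE), which encodes nurim, in front, a share of calls near that of all genes. At the IL3 endpoint 1 of them fell, Tor1aip1 (−0.78 ± 0.049 SE), which encodes LAP1.

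Of 31 nucleoporin genes, 5 rose and 2 fell after GCSF pre-treatment (list median 0.18), a smaller share than the 33.7% of all genes, led by the scaffold genes Nup85 (0.94 ± 0.061 SE) and Nup93 (0.76 ± 0.063 SE). With OHT in GCSF, 10 fell and none rose (median −0.29), beside 24.8% of all genes called, with Ndc1, which anchors the pore in the membrane, at −1.04 ± 0.064 SE. At the IL3 endpoint 5 fell, beside 25.4% of all genes called, and at the GCSF endpoint 1, beside 39.1%. One of those that fell in IL3 and after GCSF pre-treatment, Nupl1, was counted at or below the floor of 3 reads and gets no fold. None of 8 envelope sealing genes of the ESCRT-III machinery was called at any endpoint. Of 12 late cholesterol synthesis genes, whose pathway holds the step shared by LBR and TM7SF2, 1 rose and 6 fell after GCSF pre-treatment (median −0.49), where 33.7% of all genes were called. With OHT in GCSF 4 rose, beside 24.8% of all genes called, led by Msmo1 (1.21 ± 0.094 SE). Tm7sf2 itself was at −1.02 ± 0.12 SE at the GCSF endpoint, where Lbr was at 1.14.

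By likeness of pattern over 54 group means, among 9931 genes with a mean of at least 100, Lmnb1 was closest to the DNA synthesis genes Tyms (Pearson r 0.98), Mcm5 (0.98) and Fen1 (0.98), and Lmnb2 to Dnmt1 (0.97), Chaf1a (0.96) and Ddx11 (0.96). Lmna was closest to the lysosomal protease gene Ctsl (0.97), Rraga (0.96) and Tm4sf19 (0.96), and Lbr to Fam49b (0.96), Tbc1d2b (0.96) and Spata13 (0.95). Sun1 (Irgq, B4galt7 and Ugdh, all 0.90) and Sun2 (Gstm1, 0.94, H2az2, 0.93, and Tiam1, 0.92) had looser neighbours, and Emd had none above 0.75 (Stip1). Within the 7 genes, Lmnb1 and Lmnb2 were most alike (r 0.91), and Lmna and Lmnb2 ran most opposite (−0.82), followed by Lmnb1 and Sun1 (−0.77) and Lbr and Lmna (−0.75).

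On GRCm38 (GENCODE), Lmna lies at chr3:88480147-88509956, Lmnb1 at chr18:56707813-56753424, Lmnb2 at chr10:80901203-80918245, Lbr at chr1:181815335-181843046, Sun1 at chr5:139200637-139249840, Sun2 at chr15:79724070-79742536 and Emd at chrX:74254687-74261548. Lamin A and lamin C come from 1 row, so the table gives no ratio of the isoforms. Dnah14 overlaps Lbr on the opposite strand and averaged 105.5 normalized counts with a highest value of 174.9, far below Lbr. Sun1 and Sun2 each overlap an annotated antisense gene that was not analysed here, and reads from these could not be told apart if counting ignored strand.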

How the data were processed

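Polyadenylated RNA of 165 libraries in 56 groups was sequenced as paired reads. Per the submitters' processing notes and the methods, the authors quantified transcripts with Salmon (mouse GRCm38), summed them per gene and divided the counts by DESeq2 size factors. This normalized count (a signal scaled per library) is the deposited value. All values came out as whole reads when multiplied by a library factor (100% within a relative tolerance of 1e-06), and edgeR and DESeq2 were run on these reads as alternatives. Floors cover counting error only: 3 reads equal 1.96 to 5.51 normalized counts. Replicate pairs differed beyond sampling noise (lowest chi-square per gene 2.29, 162 pairs), so none was taken for a repeat deposit. The 95% intervals come from the limma SE, whose spread is pooled over all groups of a fit. Like the p-values, they measure the spread between replicate cultures of 1 line within a group. The spread between plates is not covered, since each time point had its own plate.

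Genes with a value of at least 5 in at least 1 library entered (17414 genes; 17439 with the 2 IL3 time points left out of the main fit, following the study). limma 3.58.1 (R 4.3.3) fitted 1 mean per group on log2(normalized count + 1) with a mean-variance trend (105 residual and 8.12 prior degrees of freedom). The lamin ratio was tested by exact permutation (scipy). Alternatives were pseudocounts of 0.5 and 5, no filter, a mean of at least 10, upper-quartile scaling, each replicate left out, a replicate block, edgeR 4.0.16, DESeq2 1.42.0 and fits of 2 groups. The code was tested on simulated data. GCSF 0h titles name OHT, but the descriptions and methods place these samples before OHT, which was followed. All 7 genes were tested in every comparison; of each list, the called genes with the largest changes (at most 3) could be named, and likeness names 3 genes for each. The members and lists were chosen with earlier results of these data known. Nup42 and Nup58 are listed as Nupl2 and Nupl1. Promoter sequences are from RefSeq; 6 of the 7 genes were looked up there.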

Additional observations from a re-analysis of the deposited data

Results flagged for a closer look

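The difference between cytokines in the effect of OHT at 168h, an interaction term in limma, passed both the adjusted p and the fold threshold for 2 of the 7 genes. For Lmna the effect in GCSF minus that in IL3 was 2.97 on the log2 scale, and for Sun2 it was −0.68. The effect in IL3 also holds the time in plates before OHT, which the effect in GCSF does not. The Sun2 libraries of GCSF-OHT 168h all lay below GCSF 0h and those of IL3-OHT 168h all above undifferentiated cells, whereas the Lmna libraries overlapped between GCSF 0h and GCSF-OHT 168h. Groups of 3 were not examined for single libraries that stand apart.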

How the results depend on the processing

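Of 1316 recomputed log2 fold changes of single genes, 1281 kept their direction and their side of the threshold, 4 lost the call, 14 gained one and 17 changed sign; the causes were not tested. With upper-quartile scaling the count of called genes was 2 in place of 1 for OHT in GCSF (Sun2 joined at −0.58) and 1 in place of 2 for 80h in GCSF. Lbr after GCSF pre-treatment passed with upper-quartile scaling (0.59), edgeR (0.62) and DESeq2 (0.61) and without replicate 1 or 3. Counts of called genes without 1 replicate were 5 to 6 after GCSF pre-treatment, 1 for OHT in GCSF, 0 to 1 at 8h in GCSF and 1 to 2 at 80h in GCSF. Among all genes, the 24h to 32h share called of 0.172% in GCSF and 0.356% in IL3 became 0.196% and 0.36% without a filter, on more genes tested (28063), and 0.103% and 0.218% without replicate 1. In GCSF these were 55 and 18 genes in place of 30. Other calls gained were Sun2 over the 25 shared time points in edgeR (0.59) and without replicate 3 (0.58), Sun2 over the GCSF course with upper-quartile scaling (−0.58), Sun2 at IL3 144h without replicate 3 (−0.60), Lmna at 80h in GCSF without replicate 1 (0.60) and Emd over the IL3 course without replicate 3 (−0.59).
With 1 replicate left out, changes of sign concerned differences near 0: Lmnb2 at the IL3 endpoint (−0.063 to 0.048), Emd at 8h without replicate 3 (0.025 in GCSF) and in IL3 (−0.085 to 0.16), Emd at 80h in GCSF (−0.057 to 0.018, and 0.010), Lmna (−0.039 to 0.019), Sun2 (−0.042 to 0.0001) and Emd (0.013 at its highest) from 24h to 32h in GCSF, Sun1 (−0.064 to 0.019, and 0.0051) and Emd (−0.12 to 0.024, and 0.014) from 24h to 32h in IL3, and Lmnb1 (−0.0030 to 0.093), Sun1 (−0.017 at its lowest), Sun2 (−0.049 to 0.054) and Emd (−0.10 to 0.13) at 1h in IL3. With upper-quartile scaling the farthest change of Emd in the GCSF course was −0.25 in place of 0.24. Same-numbered libraries did not deviate together (correlations of −0.172 to 0.133), and with the replicate number as a block no call among the 7 genes changed and 5871 genes in place of 5861 were called after GCSF pre-treatment. The lamin ratio kept its direction in all alternatives, between −6.52 and −6.20 after GCSF pre-treatment, 0.44 and 0.74 for OHT in GCSF, −2.84 and −2.01 at the IL3 endpoint and −5.81 and −5.72 at the GCSF endpoint. Without 1 replicate its p could not go below 0.333.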
